A study of Mus musculus with 15 samples.

Results

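Glycolysis turns glucose into pyruvate in the cytosol and yields ATP without oxygen. The 10 genes described here, Slc2a1, Hk2, Pfkp, Aldoa, Tpi1, Pgk1, Pgam1, Eno1, Pkm and Ldha, encode a glucose transporter, an enzyme for most of the steps that follow, and the enzyme that converts pyruvate to lactate. They were chosen by symbol. All 10 were among the 53564 genes of the 2-cell embryo table, and 9 were among the 51627 genes used from the embryonic stem cell (ESC) table. Hk2 was not analysed here in stem cells.

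Several of these steps can be run by more than 1 isozyme, so a cell's set of isozymes is a trait of its own. Hypoxia-inducible factor (HIF) and Myc are textbook activators of many glycolysis genes. Mouse embryos at the 2-cell stage are known to live on pyruvate and lactate and to use little glucose, whereas proliferating ESCs run glycolysis at a high rate.

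Zscan4 is a family of zinc-finger genes that are switched on in 2-cell embryos and, at any time, in a small share of ESCs. The stem cells were J1, an established male mouse ESC line, at the passage given as PN+8 and kept on no feeder cells. Their groups were 2 wild type control libraries and 2 libraries with Zscan4 overexpression. The embryo groups were 5 wild type control libraries and 6 libraries labelled Zscan4 RNAi, all from 2-cell embryos. Not given in the sources used here: embryo strain, number of embryos pooled, RNAi reagent, treatment of the control embryos, and the vector, promoter and clonality of the overexpressing cells. The titles call the libraries RNA-Seq, while other labels name genomic DNA as the molecule. No label says that libraries of a group came from separate cultures or embryo collections, so the p-values measure the spread between these libraries, which may be technical.

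Values are normalised reads, that is, the reads counted for a gene divided by 1 size factor per library. The ESC libraries held 21820093 to 26555027 reads in genes and the embryo libraries 695524 to 1432566, so the embryo values carry far more counting error. In embryos, 1 read equalled 0.687 to 1.39 normalised reads. Summed over 9 Zscan4 rows, the level was 152 to 212 in control ESCs and 19449 to 20005 with overexpression, 108.4-fold higher in means (exact permutation p = 0.333, two-sided, the smallest that 2 against 2 libraries allow). In embryos the sum was 345 to 1064 in controls and 13.9 to 383 with RNAi, 3.20-fold lower in means, and the ranges overlapped (exact permutation p = 0.013, two-sided). Fixed markers of ESCs were present in every ESC group, with summed levels of 97912 to 98219 in controls and 107754 to 143943 with overexpression, and 1 of 8, Zfp42, was called higher. Fibroblast markers summed to 530.5 to 581 in controls and 518 to 597 with overexpression, sums that hide called changes in both directions: Thy1 fell from a mean of 421 to 196, while Col1a2 rose from 53.0 to 258 and Col3a1 from 8.01 to 56.1. Of the oocyte and early embryo markers (926 to 1067 against 1130 to 2070 summed), Zp3 rose from 70.9 to 427 and Bmp15 from 0 to 29.8. The part of these marker changes in the ESC results was not tested. Fixed oocyte and early embryo markers summed to 1638 to 3813 in control embryos and to 3843 to 10193 with RNAi, where 5 of 10 were called higher, led by Bmp15 at means of 1192 and 3892. Zp3, at 78.8 and 37.2, ran the other way and was not called (adjusted p = 0.0723). The ESC markers summed to 505 to 966 in control embryos and 238 to 384 with RNAi, and 1 of 8 was called, Dppa5a, which fell from 630.3 to 128 (adjusted p = 0.00131). Cumulus and granulosa markers summed to at most 16.97 in any embryo library, with Amh, Inhba and Has2 at 0 in every one. The counts of called markers stand beside 11.4% of all tested genes called lower and 11.7% higher in ESCs. In embryos these shares were 12% lower and 6.13% higher.

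Overexpression of Zscan4 in ESCs came with lower RNA of the glucose transporter and of several enzymes of glycolysis. Pfkp was 3.95-fold lower in means, Pgk1 3.17-fold, Aldoa 3.0-fold and Slc2a1 2.35-fold. These 4 passed the threshold (an adjusted p of 0.05 over all genes tested), and no member passed it in the other direction. The members together held 2.01% (exact binomial 95% interval 2.007% to 2.018%) and 1.995% (1.990% to 2.000%) of all reads in the controls. With overexpression they held 0.930% (0.927% to 0.934%) and 1.177% (1.173% to 1.182%). Reads from PCR-amplified libraries are not independent molecules, so such intervals cover counting error only. In bulk libraries, fewer cells of a kind and less RNA per cell cannot be told apart.

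All 9 members measured had both overexpression libraries below both controls. This is to be read against the background of 20888 genes tested, of which 34.6% did the same and 68.8% did not overlap in either direction. The count of 4 called lower stands beside 11.4% of all tested genes called lower, 11.7% called higher and 23.2% called in all. The median log2 fold change was -0.98 over the 9 members and -0.02 over all genes tested. The controls were much alike, with a median SD over genes of 0.09 on the log2 scale, against 0.41 between the overexpression libraries.

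**Figure D1:**
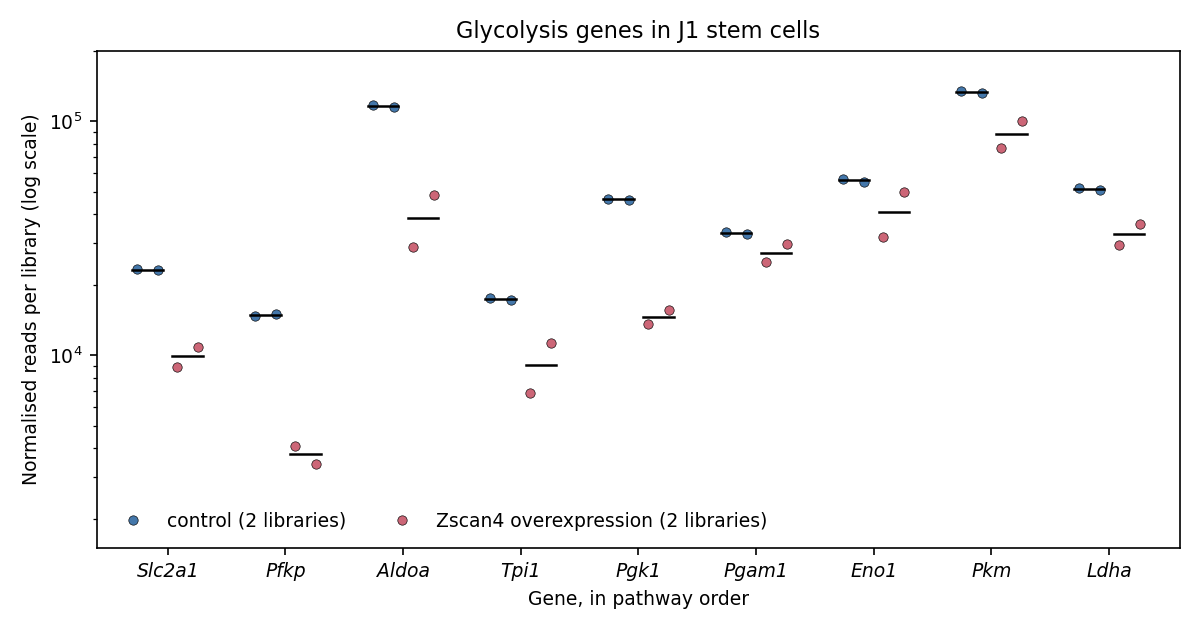
Normalised reads per library (vertical axis, log scale) of 9 glycolysis genes in J1 ESCs, in the order of the pathway; each point is 1 library and each bar the mean of 2. In every gene both overexpression points lie below both control points. On the log scale the nearest points lie furthest apart for Pfkp (14761 against 4095) and closest for Eno1 (55136 against 49895).

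Glucose enters the cell through transporters of the Slc2a family, of which Slc2a1 (GLUT1; chromosome 4, 119108711 to 119137983, mm10) is the most widely expressed. Control libraries had 23269 and 23118 normalised reads of it, and overexpression libraries 8894 and 10852. Slc2a1 fell, with means of 23193 ± 107 and 9873 ± 1385 (SD, n = 2 each) and a log2 fold change of -1.24 ± 0.19 (SE; adjusted p = 0.022, limma). The call rests on both controls: without control 1 the adjusted p was 0.174, and without control 2 it was 0.171.

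Pfkp (chromosome 13, 6579768 to 6648777) encodes the platelet isoform of phosphofructokinase, the enzyme of the committed step. It was at 14761 and 14969.8 in the controls and at 4095 and 3438 with overexpression, the largest fold among the members. Its log2 fold change was -1.99 ± 0.17 (adjusted p = 0.012), from means of 14865 ± 148 and 3767 ± 464 (SD, n = 2 each).

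Aldoa (chromosome 7, 126795234 to 126800751), the aldolase that splits fructose bisphosphate, was at 116677 and 115300.5 in the controls and at 28877 and 48444 with overexpression. The overexpression libraries lay far apart, at 38661 ± 13836 (SD, n = 2). Aldoa fell by 1.63 on the log2 scale (SE 0.32, adjusted p = 0.0331), and without control 1 the adjusted p was 0.0521. Tpi1 (chromosome 6, 124810586 to 124814296), which interconverts the products of that split, was at 17493 and 17225 against 6893 and 11233. Its mean was 1.92-fold lower with overexpression and did not pass the threshold (log2 fold change -0.98 ± 0.28, adjusted p = 0.0732).

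Pgk1 (chromosome X, 106187100 to 106203699) makes the first ATP of the pathway. It was at 46481 and 46206 in the controls and at 13614 and 15601 with overexpression, and these libraries were close to each other. Pgk1 fell from a mean of 46343 ± 194 to 14607 ± 1405 (SD, n = 2 each), a log2 fold change of -1.67 ± 0.18 (adjusted p = 0.0148).

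Below Pgk1 in the pathway no member was called. Pgam1 (chromosome 19, 41911923 to 41918660), which moves the phosphate within phosphoglycerate, differed least, with 33436 and 33079 in the controls and 24962 and 29842 with overexpression (log2 fold change -0.29 ± 0.19, adjusted p = 0.326). Eno1 (chromosome 4, 150236721 to 150248879), the enolase found in most cells, was at 56754 and 55136 against 31899 and 49895 (-0.49 ± 0.28, adjusted p = 0.265). Pkm (chromosome 9, 59656368 to 59679375), the pyruvate kinase of most tissues, was at 134281 and 132538 against 76436 and 100497 (-0.61 ± 0.24, adjusted p = 0.141). Ldha (chromosome 7, 46841475 to 46855627), the lactate dehydrogenase subunit of glycolytic tissues, was at 51633 and 50929.7 against 29548 and 36430.4 (-0.64 ± 0.20, adjusted p = 0.0872). Whether these genes differed from the 4 called ones in their response was not tested. Each of the 4 calls was lost when the spread was taken from the overexpression libraries alone (adjusted p = 0.166 to 0.219), a setting under which no gene at all passed.

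Per kilobase of principal transcript, the order of the members in control ESCs ran from Aldoa at 76763 normalised reads per kb through Pkm at 54856, Ldha at 29038, Eno1 at 27600.0, Pgk1 at 25394, Pgam1 at 18737, Tpi1 at 10802 and Slc2a1 at 7115 to Pfkp at 3586. No pair of neighbours in that order overlapped in its 2 control libraries. With overexpression Pkm led at 36376 per kb and Aldoa followed at 25586, and Pgk1, at 8004 per kb, lay below Pgam1 at 15438. Tpi1, Slc2a1 and Pfkp stayed the lowest, at 5639.5, 3029 and 909 per kb.

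The counts of some members can hold reads of copies elsewhere, since glycolysis genes have many processed pseudogenes. Of the 50-base words in the members' transcripts, those also found in transcripts of other annotated genes made up 53.9% for Pgk1, 36.2% for Pgam1, 26.0% for Eno1 and 25.8% for Pkm. The share was 0% for Hk2 and 1.54% to 9.26% for Slc2a1, Tpi1, Pfkp, Aldoa and Ldha. Eno1b, a near-identical copy of Eno1, was listed at 57234 and 56008 in control ESCs and 32514 and 54537 with overexpression, almost the values of Eno1, so how reads were split between them is uncertain. Exons of Slc2a1, Pfkp, Aldoa and Tpi1 overlap exons of a gene on the opposite strand, and Pkm overlaps a gene on its own strand. The strand setting of the counting was not given in the sources used here.

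Bases just before the start of transcription show what the members share in sequence. The words ACGTG and GCGTG, the cores bound by HIF, and CACGTG, the E-box bound by Myc and related factors, were searched on both strands in the 250 bases before each RefSeq start. Each CACGTG also holds ACGTG, once per strand. ACGTG was present in 7 of 10 member genes, against 18.5% of 27025 genes, and GCGTG in 5 of 10, against 30.9%. CACGTG was present in 1 of 10, Ldha, against 6.86%, and either HIF core in 9 of 10, against 41.5%. A match to letters is a description of the window and does not show binding. Every one of these words holds the pair CG, and the genes compared were not matched for how often CG occurs. Members with several starts, such as Eno1 and Aldoa, have more chances of a match. Shown are Pgk1, called in stem cells, Ldha, the member with CACGTG, and Pgam1, called in embryos, each from 5′ to 3′ from RefSeq on GRCm38.p6, plus strand, with the searched words in capitals:
Pgk1, chrX:106186850-106187099: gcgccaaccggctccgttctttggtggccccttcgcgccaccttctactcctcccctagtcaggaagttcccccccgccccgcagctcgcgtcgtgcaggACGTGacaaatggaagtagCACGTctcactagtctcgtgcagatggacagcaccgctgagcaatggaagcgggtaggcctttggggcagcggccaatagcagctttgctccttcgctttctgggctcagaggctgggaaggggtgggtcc
Ldha, chr7:46845554-46845803: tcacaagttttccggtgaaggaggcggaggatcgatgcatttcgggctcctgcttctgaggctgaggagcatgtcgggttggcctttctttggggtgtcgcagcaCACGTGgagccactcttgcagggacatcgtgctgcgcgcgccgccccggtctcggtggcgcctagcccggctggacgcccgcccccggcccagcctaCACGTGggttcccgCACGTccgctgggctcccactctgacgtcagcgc
Pgam1, chr19:41911621-41911870: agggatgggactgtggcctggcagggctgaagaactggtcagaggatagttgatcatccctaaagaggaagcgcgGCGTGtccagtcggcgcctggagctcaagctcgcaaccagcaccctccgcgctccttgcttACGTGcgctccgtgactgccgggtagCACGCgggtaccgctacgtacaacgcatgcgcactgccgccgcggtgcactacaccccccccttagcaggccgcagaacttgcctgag
The Pgk1 window has ACGTG on each strand, 150 and 131 bases before the start. The Ldha window shown holds CACGTG at 2 places and a further ACGTG on the minus strand 34 bases before the start. The window of another Ldha start, chr7:46846832-46847081, has 1 GCGTG and neither ACGTG nor CACGTG. The Pgam1 window has 1 ACGTG and 2 GCGTG.

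The shares of isozymes within a step were also set side by side in ESCs. The share of Ldha among Ldha, Ldhb and Ldhc, in reads per kb of merged exons, was 51.5% and 51.7% in the controls and 96.3% and 97.2% with overexpression. The groups lay 45.2 percentage points apart and did not overlap, and Ldha held the larger share in both. Ldhb, the lactate dehydrogenase subunit of oxidative tissues, was at 22740.2 and 22608 normalised reads in control cells and at 354 and 579 in overexpressing ones, 48.6-fold lower in means (log2 fold change -5.64 ± 0.28, adjusted p = 0.0112). Ldha itself was 1.55-fold lower and not called.

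Pfkp held 31.0% ± 0.571 of phosphofructokinase reads per kb in the controls and 17.1% ± 5.01 with overexpression (SD, n = 2 each). The share depends on the length used: per kb of principal transcript it was 47.1% and 29.0%. Its partners Pfkl, the liver isoform, and Pfkm, the muscle isoform, had means of 12302 and 2103 normalised reads in control cells, of 6877 and 1268 in overexpressing ones, and were not called (adjusted p = 0.0672 and 0.0553). Slc2a1 held 53.7% ± 0.0319 of the Slc2a1 and Slc2a3 reads per kb in the controls and 44.4% ± 6.91 with overexpression (SD, n = 2 each). Per kb of principal transcript its share was 40.5% and 32.1%, so which transporter led in control ESCs turned with the length used. Slc2a3 (GLUT3), a transporter of high affinity for glucose, was at 41505 and 41161 against 28093 and 23048 and was not called (1.62-fold lower, adjusted p = 0.0695). The mean shares of Aldoa, Pgk1, Pgam1, Eno1 and Pkm were from 93.1% to 100% in both groups. Eno1's share was taken over Eno1, Eno2 and Eno3, without Eno1b, and its lowest library was at 92.3%. With 2 against 2 libraries the exact permutation test of a share cannot go below p = 0.333, and after adjustment over 8 shares the smallest was 0.381.

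**Figure D2:**
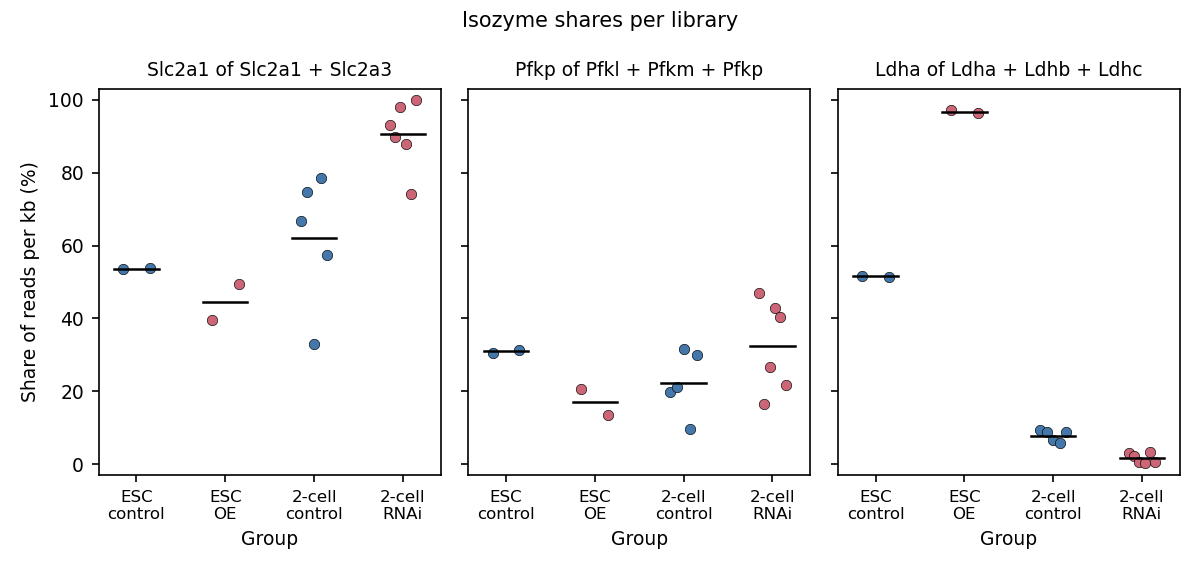
Share of a member among the isozymes of its step (percent of reads per kb of merged exons) in each library; points are libraries and bars group means. Ldha's share lies at 51.6% in control ESCs, at 96.8% with overexpression, at 7.83% in control embryos and at 1.64% with RNAi; Slc2a1's share lies at 62.1% in control embryos and 90.5% with RNAi.

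The rest of the pathway in ESCs was counted over fixed lists. Each count of calls stands beside 11.4% of all tested genes called lower and 11.7% called higher. No list was tested against these shares. Among 17 other glycolytic enzymes and isozymes tested, 5 were called lower and 0 higher (0 higher by edgeR, DESeq2 and voom, and 1 at an unadjusted p under 0.05), with a median log2 fold change of -0.43. Aldoc, the aldolase of brain, was at 3245 and 3118 against 293 and 383, 9.42-fold lower (adjusted p = 0.0116). Eno2, the neuronal enolase, was at 682 and 730.2 against 108 and 122, 6.14-fold lower (adjusted p = 0.0118). Hk1, the housekeeping hexokinase, was at 6494 and 6737 against 2403 and 2734, 2.58-fold lower (adjusted p = 0.0165). Gapdh, which follows Tpi1 in the pathway, was at 169486 and 165017 against 98773 and 164944 and was not called (log2 fold change -0.39, adjusted p = 0.426).

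Of 14 transporters of hexoses and monocarboxylates, 2 were called lower and 1 higher. Slc16a3, the exporter of lactate from glycolytic cells, fell from 7538 and 7244 to 1149 and 1912, 4.83-fold (adjusted p = 0.0175). Slc2a4, the insulin-responsive glucose transporter, fell from 196 and 198 to 25.5 and 26.2, 7.63-fold (adjusted p = 0.0129). Slc5a1, a sodium-coupled glucose transporter, rose from 10.5 and 11.2 to 102 and 41.7 (adjusted p = 0.0423).

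Among 14 genes of lactate and pyruvate use, 3 were called lower and 1 higher. Besides Ldhb, the lower ones were Pdk4 (675 and 645 against 119 and 59.6, adjusted p = 0.0185) and Pdk2 (586 and 549 against 169 and 222, adjusted p = 0.0218), kinases that switch off pyruvate dehydrogenase. Of 15 genes of gluconeogenesis and flux control, 1 was called lower and 4 higher. Among the higher ones, Tigar, which slows glycolysis, rose from a mean of 473 to 2139 (log2 fold change 2.17, adjusted p = 0.01175, limma). Myc rose from 62.9 and 49.6 to 1289 and 1664, 26.3-fold in means (log2 fold change 4.69, adjusted p = 0.0112), and Fbp2, a muscle fructose bisphosphatase that runs the phosphofructokinase step backwards, from 59.1 and 62.7 to 567 and 749.9 (3.40 on the log2 scale, adjusted p = 0.0116).

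Hypoxia targets outside glycolysis gave the highest share of calls among the lists: 16 of 21 were called lower and 0 higher (0 higher at an unadjusted p under 0.05 and by edgeR, DESeq2 and voom), with a median log2 fold change of -1.92. Bhlhe40, a repressor of transcription, was at 3967 and 3792 against 359 and 280.2, 12.1-fold lower (adjusted p = 0.0112). P4ha1, which hydroxylates collagen prolines, was at 4471 and 4507 against 781 in both libraries, 5.75-fold lower (adjusted p = 0.0112). Vegfa, the vascular growth factor, was at 3046 and 3052 against 588 and 492, 5.64-fold lower (adjusted p = 0.0116).

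In other branches that leave glycolysis, 5 of 14 were called lower and 0 higher (1 higher at an unadjusted p under 0.05 and 0 by edgeR, DESeq2 and voom). They were led by Pgm2, a phosphoglucomutase, at 4029.7 and 3923 against 709 and 893, and by Pygl, the liver glycogen phosphorylase, at 504 and 463 against 43.8 and 25. None of 8 genes of the pentose phosphate pathway and none of 17 of the tricarboxylic acid cycle was called by limma after adjustment. At an unadjusted p under 0.05 the counts were 2 higher and 0 lower in the former and 2 lower and 0 higher in the latter. DESeq2 and voom each called 1 pentose phosphate gene higher and no gene of the cycle, and edgeR called none in either list.

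**Figure D3:**
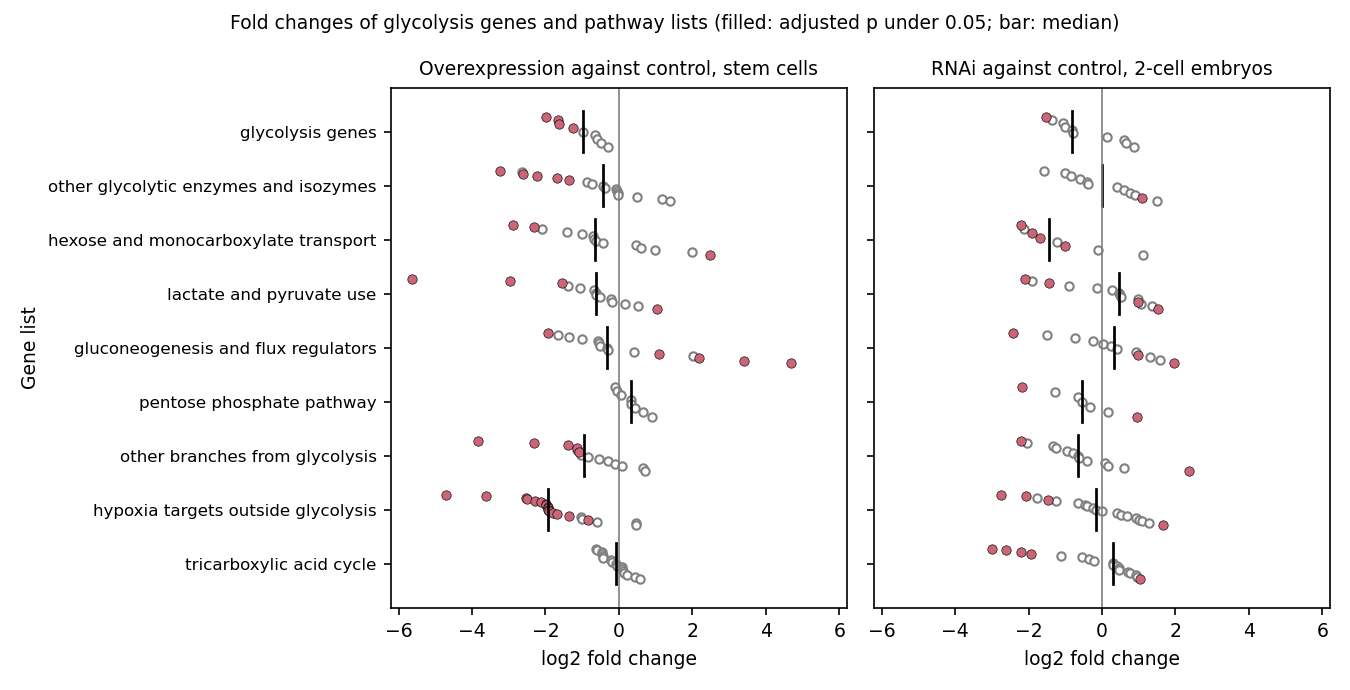
Log2 fold change (horizontal axis) of each tested gene of the glycolysis set and of 8 fixed lists (rows); filled points have an adjusted p under 0.05 and vertical bars are medians. In ESCs the hypoxia targets outside glycolysis have the lowest median, -1.92; in embryos that of transporters is the lowest, -1.45, over 8 genes.

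In 2-cell embryos the members were expressed at low levels, and reducing Zscan4 came with 1 call among the 10. Pgam1 was 2.56-fold lower in means with RNAi. Of the other 9, Hk2, Pgk1, Eno1, Pkm and Ldha had lower means with RNAi and Slc2a1, Pfkp, Aldoa and Tpi1 higher ones. Aldoa's means, 59.2 in controls and 59.7 with RNAi, were nearly equal. In no member did the groups stay apart, against 7.33% of 16417 genes tested whose groups did not overlap (4.28% lower and 3.05% higher with RNAi). The call of 1 lower member stands beside 12% of all tested genes called lower and 6.13% called higher. With 0 members called higher, 1 (Slc2a1) had an unadjusted p under 0.05, voom with quality weights called 1, and edgeR and DESeq2 called 0. The median log2 fold change was -0.81 over the members and -0.03 over all genes tested.

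**Figure D4:**
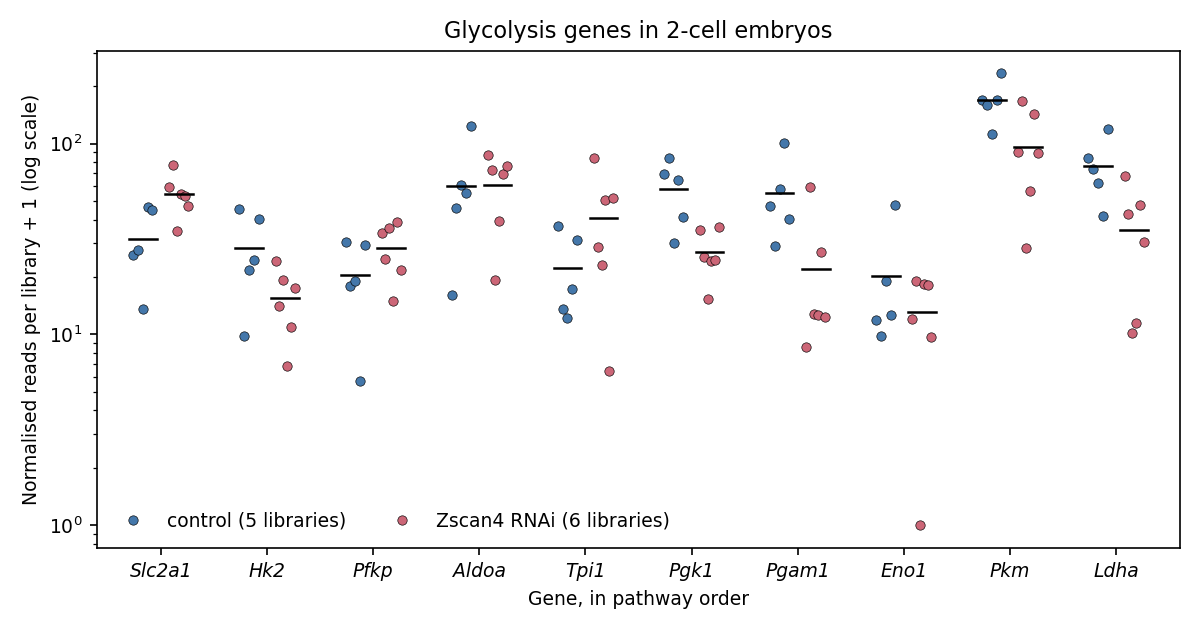
Normalised reads plus 1 per library (vertical axis, log scale) of the 10 glycolysis genes in 2-cell embryos; each point is 1 library and each bar a group mean. The groups overlap in all 10 genes; the RNAi library at the bottom for Eno1 had 0 reads.

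Pgam1 had 46.1, 28, 57.1, 99.5 and 39.1 normalised reads in controls 1 to 5. With RNAi the lowest library had 7.55, the median was 11.7 and the highest library had 58.2. In 5 of 6 RNAi libraries Pgam1 lay below all 5 controls, while RNAi 2, at 58.2, lay above 4 of them. The means were 54.0 ± 27.6 (SD, n = 5) and 21.1 ± 19.3 (SD, n = 6), a log2 fold change of -1.53 ± 0.50 (adjusted p = 0.0366). The call was lost without any 1 of 7 libraries, namely controls 1, 3 and 4 and RNAi 1, 3, 4 and 6, with adjusted p from 0.0622 to 0.115.

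Pgk1, Ldha and Pkm came next in order of p and did not pass. The gene called turned with the tool: DESeq2 called Pgk1 (adjusted p = 0.0172) and not Pgam1 (0.0535), and edgeR called no member. Pgk1 had 67.9, 83.4, 29.2, 63.2 and 40.1 in the controls and 14.3 to 35.6 with RNAi, around a median of 24.0 (2.19-fold lower in means, log2 fold change -1.06 ± 0.39, adjusted p = 0.0599). Only control 3 lay within the RNAi range. Ldha had 83.0, 72.3, 61.2, 41.0 and 118 in the controls and 9.13 to 66.6 with RNAi, around a median of 35.7 (2.21-fold lower, -1.36 ± 0.48, adjusted p = 0.0556). Pkm had 169, 159, 111, 169 and 233 in the controls and 27.4 to 167 with RNAi, around a median of 88.9 (1.77-fold lower, -0.9995 ± 0.39, adjusted p = 0.0813).

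Slc2a1 stood on the other side, with 25.2, 26.6, 12.5, 45.7 and 44.0 in the controls and 33.9, 52.8 and 76.3 as the lowest, median and highest values with RNAi. Its mean was 30.8 ± 13.95 (SD, n = 5) in controls and 53.4 ± 14.02 (SD, n = 6) with RNAi, 1.73-fold higher, and it did not pass the threshold (log2 fold change 0.87 ± 0.39, adjusted p = 0.123). In 5 of 6 RNAi libraries it lay above all 5 controls.

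The other members were measured on few reads and were not called. Hk2, the hexokinase isoform bound to mitochondria in glycolytic cells (chromosome 6, 82725025 to 82774454), had 8.85 to 44.4 in the controls and 5.80 to 23.3 with RNAi (-0.80 ± 0.50, adjusted p = 0.272). Pfkp had 4.68 to 29.4 and 13.9 to 37.9 (0.61 ± 0.48, adjusted p = 0.398), and Tpi1 11.1 to 36.1 and 5.41 to 83.1 (0.64 ± 0.56, adjusted p = 0.453). Aldoa had 15.1 to 122 and 18.3 to 86.5 (0.13 ± 0.48, adjusted p = 0.883). Eno1 had 8.85 to 46.9 in the controls and 0 to 18.0 with RNAi (-0.83 ± 0.70, adjusted p = 0.437). The library at 0 allows a level of up to 3.91 normalised reads, the worth of 3 reads.

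The embryo members together held 0.0413% (exact binomial 95% interval 0.0366% to 0.0463%) to 0.0896% (0.0834% to 0.0962%) of all reads in controls. With RNAi they held 0.0174% (0.0147% to 0.0205%) to 0.0545% (0.0503% to 0.0589%), and the groups overlapped. Per kilobase of principal transcript, control embryos had Pkm at 69.1 normalised reads per kb, Ldha at 42.6, Aldoa at 39.2, Pgk1 at 31.1, Pgam1 at 30.4, Tpi1 at 13.2, Eno1 at 9.52, Slc2a1 at 9.44, Hk2 at 4.96 and Pfkp at 4.70. In all 9 neighbouring pairs of that order the control libraries overlapped. With RNAi, Aldoa (39.5 per kb) and Pkm (39.0 per kb) led and Hk2 was last at 2.63 per kb.

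The lactate dehydrogenase and glucose transporter isozymes shifted in embryos. Ldhb made up most of the lactate dehydrogenase RNA there. Ldha's share was 5.77% to 9.34% in the controls (7.83% ± 1.57, SD, n = 5) and 0.219% to 3.19% with RNAi (1.64% ± 1.31, SD, n = 6). It was 6.18 percentage points lower with RNAi and the groups did not overlap (exact permutation p = 0.00216, two-sided, adjusted over 3 shares 0.00649). Ldhb had 378, 345, 397, 313 and 568 normalised reads in the controls and 644, 943 and 2414 as the lowest, median and highest values with RNAi. Ldhb rose 3.28-fold in means (log2 fold change 1.52 ± 0.35, adjusted p = 0.00706). Ldhc, the testis form, had means of 11.6 and 2.73 and was not called (adjusted p = 0.0543).

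Slc2a1's share of the Slc2a1 and Slc2a3 reads per kb was 32.9% to 78.6% in the controls (62.1% ± 18.2, SD, n = 5) and 74.1% to 100% with RNAi (90.5% ± 9.31, SD, n = 6). The difference of 28.4 percentage points gave an exact permutation p of 0.00866 (two-sided, adjusted 0.013), with ranges that overlapped. Slc2a3 had 26.0, 18.4, 52.9, 25.8 and 67.4 in the controls and 0 to 37.9 with RNAi around a median of 12 (2.81-fold lower, -2.12 ± 0.76, adjusted p = 0.0559). The p-values of the shares were adjusted over 3 tests and those of the genes over 16417, so the 2 kinds of call are not comparable. Per kb of principal transcript Slc2a1's share was 50.5% and 85.5%. Pkm's share was 99.7% and 99.3% (exact permutation p = 1). The other 6 shares were not tested, since the isozymes of a step had under 20 reads together in at least 1 library.

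The sum of the oocyte and early embryo markers was higher in every RNAi library than in any control (3843 to 10193 against 1638 to 3813). That of the ESC markers was lower in every RNAi library than in any control (238 to 384 against 505 to 966). Dppa5a held most of the ESC marker sum in controls, and its mean fell from 630.3 to 128. Of the 8 ESC markers, 4 had a log2 fold change below 0 and 4 above 0. The part of either sum in the embryo results was not tested.

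In embryos the fixed lists around glycolysis held calls in both directions. Their counts are to be read beside 12% of all tested genes called lower and 6.13% called higher. Groups that did not overlap are to be read beside 7.33% of all tested genes. Again no list was tested against these shares. Of 12 other glycolytic enzymes, 1 was called higher and 0 lower (1 lower at an unadjusted p under 0.05 and 0 by edgeR, DESeq2 and voom). It was Bpgm, which makes the bisphosphoglycerate cofactor of the phosphoglycerate mutases, with means of 362 and 859.9 (2.37-fold higher, adjusted p = 0.0291). Gapdh was barely detected, with 20 reads in all controls and 43 in all RNAi libraries (means of 4.37 and 6.28, adjusted p = 0.514).

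Of 8 transporters, 4 were called lower and 0 higher (1 higher at an unadjusted p under 0.05 and by each of edgeR, DESeq2 and voom). The 4 lower calls were 1 with edgeR, 3 with DESeq2 and 2 with voom. Mpc2, a subunit of the mitochondrial pyruvate carrier, fell from a mean of 130.1 to 43.7 (2.98-fold, adjusted p = 0.0153). Slc16a1, a carrier of lactate and pyruvate across the cell membrane, fell from 164 to 76.9 (adjusted p = 0.042), and Slc16a3 from 12.6 to 1.16 (adjusted p = 0.0439) on 67 and 8 reads.

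Among 14 genes of lactate and pyruvate use, 2 were called lower (1 by edgeR) and 2 higher. Pdp2, the phosphatase that switches on pyruvate dehydrogenase, fell from a mean of 145 to 38.2 without overlap (3.8-fold, adjusted p = 0.00509). Pdhb, a subunit of that enzyme, fell from 299.7 to 133 (2.26-fold, adjusted p = 0.0348). Called higher were Ldhb, given above, and Pdhx, another component of pyruvate dehydrogenase, from 76.8 to 158.6 (adjusted p = 0.0363). Of 12 genes of gluconeogenesis and flux control, 1 was called lower and 2 higher. Tigar, a fructose bisphosphatase that slows glycolysis, fell from 202 to 48.2 (4.19-fold, adjusted p = 0.00707). Pfkfb1, the liver form of the enzyme that sets fructose 2,6-bisphosphate, rose from 5.07 to 24.9 (4.90-fold, adjusted p = 0.0225), and Hif1a, the oxygen-regulated subunit of HIF, from 77.4 to 150.01 (1.94-fold, adjusted p = 0.0249). None of these 3, which were named for their small p, overlapped between groups.

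Of 18 genes of the tricarboxylic acid cycle, 4 were called lower (2 by edgeR) and 1 higher. Idh3g, a subunit of isocitrate dehydrogenase, fell from a mean of 136 to 18.4 (7.39-fold, adjusted p = 0.00155), and Mdh2, the mitochondrial malate dehydrogenase, from 229 to 64.7 (3.55-fold, adjusted p = 0.00307), both without overlap. Idh3b, another subunit of isocitrate dehydrogenase, fell from 15.5 to 3.51 (4.41-fold, adjusted p = 0.0199). The median over that list was 0.31 on the log2 scale, of the opposite sign to its larger count.

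Of 19 hypoxia targets outside glycolysis, 3 were called lower (0 by edgeR, 1 by DESeq2 and 4 by voom) and 1 higher, with a median log2 fold change of -0.17. Car9, a carbonic anhydrase, rose from a mean of 42.0 to 127 (3.03-fold, adjusted p = 0.00686), while Kdm3a, a histone demethylase, fell from 83.0 to 35.2 (adjusted p = 0.0271) and Hilpda, a lipid droplet protein, from 99.1 to 36.4 (adjusted p = 0.0273). In the pentose phosphate pathway 1 of 7 was called lower, Taldo1 (transaldolase, 93.9 to 32.4, adjusted p = 0.0225), and 1 higher, G6pdx (glucose 6-phosphate dehydrogenase, 451 to 816, adjusted p = 0.0412). In the other branches 1 of 13 was called lower, Psat1 of serine synthesis (182 to 58.7, adjusted p = 0.0169), and 1 higher, Pygl (6.29 to 19.1, adjusted p = 0.0284). The calls of these 2 lists turned with the tool: edgeR called none of their genes in either direction, and DESeq2 called 1, in the other branches. With voom, 1 pentose phosphate gene was called lower and 1 higher, and 2 genes of the other branches lower and 1 higher. The pentose phosphate list had no gene called higher in 13 of 19 alternatives and the other branches none in 9.

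Side by side, Pgk1, Pgam1, Eno1, Pkm and Ldha had lower means both with overexpression in ESCs and with RNAi in embryos. Slc2a1, Pfkp, Aldoa and Tpi1 had lower means with overexpression, called for all but Tpi1, and higher means with RNAi, none called. For Aldoa the embryo means were nearly equal (59.2 in controls and 59.7 with RNAi), and its direction reversed in 2 of 19 alternatives. No member was called in both comparisons. The experiments share no libraries and were normalised separately, and a difference between their effects was not tested.

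**Figure D5:**
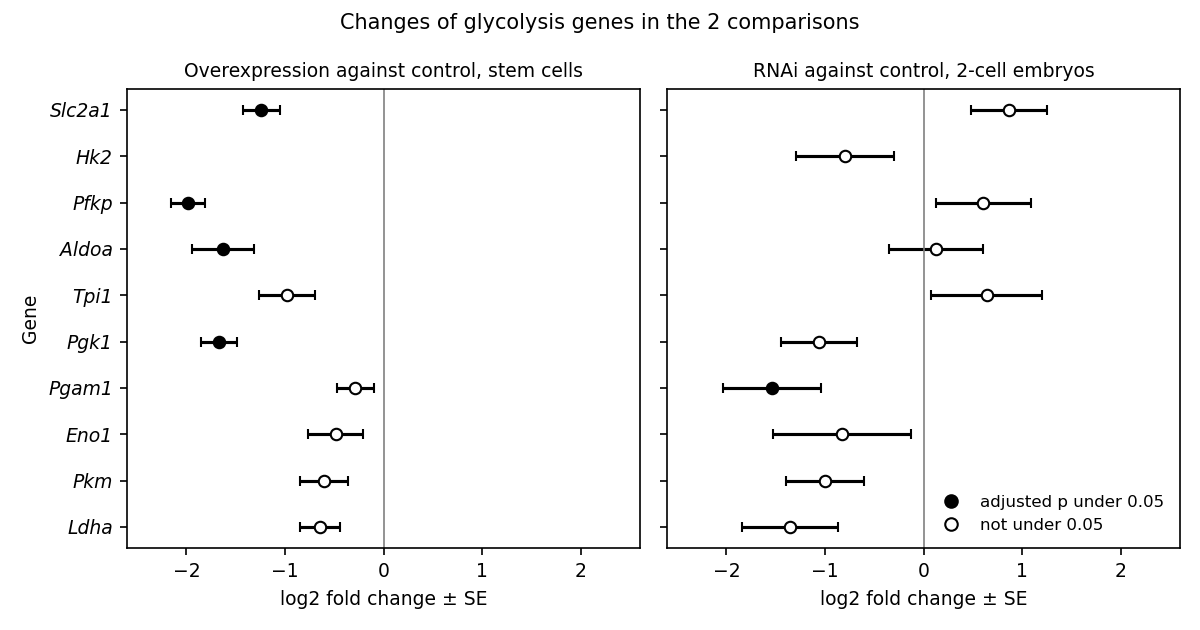
Log2 fold change with its SE (horizontal axis) of each glycolysis gene for Zscan4 overexpression in ESCs and for RNAi in 2-cell embryos; filled points have an adjusted p under 0.05. The SE spans 0.17 to 0.32 in ESCs and 0.39 to 0.70 in embryos.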

How the data were processed

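The authors deposited 1 table of gene values for 4 J1 ESC libraries and 1 for 11 libraries of 2-cell embryos. Per the submitters' processing notes they used Trimmomatic, HISAT2, featureCounts and the mm10 build (versions, gene annotation, strand setting, treatment of reads with several matches and normalisation method: not given in the sources used here). Deposited values are a signal, gene reads divided by 1 size factor per library: 100% of them came out as whole reads within 0.01 once each library's unit was found. The unit fitted the planned test.

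Each comparison was fitted over its whole table with limma 3.58.1 (trend) in R 4.3.3 on log2(value + 1). Genes entered with 1 or more normalised reads in 2 or more ESC, or 5 or more embryo, libraries. P-values were Benjamini-Hochberg adjusted over all genes tested, and 0.05 was the threshold. Fold changes on this scale understate changes of low genes; folds of means are unlogged. edgeR 4.0.16 and DESeq2 1.42.0 ran on the recovered reads as alternatives, beside voom with quality weights, quantile normalisation, other pseudocounts and filters, and each library left out. The test was checked on simulated data in which both groups had 1 common spread. The ESC groups differed in spread (median SD 0.09 in controls and 0.41 with overexpression, log2 scale). That check therefore cannot speak for the ESC calls. Isozyme shares and Zscan4 sums had two-sided exact permutation tests (SciPy 1.17.1); a share was tested where its isozymes had at least 20 reads in every library.

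Gene positions are from GENCODE vM21 on mm10, to which 51348 ESC identifiers and 53415 embryo symbols matched. Promoters are from RefSeq (GRCm38.p6). Shared sequence was counted over annotated transcripts, in place of the genome planned, so copies outside annotated genes were not seen.

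The members and lists were chosen with earlier results of these data known, and so was the choice of fit. Genes named beside the members are, from each list, up to 3 past the threshold with the smallest p. Gapdh, Slc2a3 and the isozymes of the shares are named as well. Eno1b, and Pdhx in embryos, were added after their values were seen. The control columns of the embryo table carry other numbers than the labels, so numbers there only name libraries.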

Additional observations from a re-analysis of the deposited data

Results flagged for a closer look

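Among 28 sets of values in the embryo groups of 5 controls or 6 RNAi libraries, 3 values of the members lay far from the rest of their group by Dixon's gap test, where chance gives about 1 in 20. Eno1 in embryo control 5 was at 46.9 normalised reads, against 8.85 to 18.1 in the other controls. Pgam1 in RNAi library 2 was at 58.2, against 7.55 to 26.1 in the other RNAi libraries, and without it the log2 fold change was -1.89 (adjusted p = 0.00674). Pkm's share of pyruvate kinase reads per kb in RNAi library 6 was 95.7%, the lowest of its group, where the other 5 libraries had no Pklr read. With those 5 tied, any lower value in a single library would be flagged, so the rate of 1 in 20 does not apply to it.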

How the results depend on the processing

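In ESCs, every member kept its direction under all 14 alternatives. The 4 calls became 7 with voom and quality weights, 2 to 9 when 1 library was left out, and 0 when the spread came from the overexpression libraries alone. With that spread no gene of the lists or of the table passed in either direction (0 after adjustment, 4935 at an unadjusted p under 0.05). Leaving out 1 library moved the list genes called from 32 to between 23 and 70 lower and from 6 to between 5 and 31 higher. The same moved all genes from 2390 to between 956 and 6706 lower and from 2453 to between 1161 and 5908 higher, and voom called 1231 lower. A lone library was then assumed to vary like the other group. The causes were not tested.

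Pairing in ESCs: same-numbered libraries deviated from their group means with a correlation of -0.007192 over 20888 genes, so no pairing was seen. Since the controls differed little (median SD 0.09 on the log2 scale), the check cannot decide whether same-numbered libraries were prepared together. With the number as a replicate block 5 members were called lower, Tpi1 being added (adjusted p = 0.0498), and 3081 genes were lower and 2943 higher. No paired analysis was possible in embryos because the control columns do not carry the labels' numbers.

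In embryos, the 1 member called lower became 2 with a pseudocount of 4, 0 with no filter, 3 with values of at least 10, 0 with edgeR, 0 with quantile normalisation, and 0 to 3 when 1 library was left out. Pgam1 kept its direction in all 19 alternatives (adjusted p from 0.00674 to 0.120) and lost its call in 11. The 0 members called higher became 1 (Slc2a1) with voom (adjusted p = 0.0445) and with quantile normalisation (0.0449), which moved the median of all genes from -0.03 to 0.14 on the log2 scale. Aldoa reversed to -0.28 without control 1 and -0.01 without RNAi 1 (from -0.28 to 0.45 over the left-out libraries), uncalled throughout. List genes called lower went from 16 to 5 with edgeR and to between 7 and 19 with 1 library left out, and those higher from 9 to between 2 and 11. All genes called lower went from 1976 to 1244 with edgeR and to between 1209 and 2255 with 1 library left out. Those higher went from 1007 to 649 with no filter, 1594 with voom and between 519 and 1320 with 1 library left out. The causes were not tested.

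The embryo shares of Slc2a1 and Ldha kept direction and call under every alternative, from 21.1 to 37.2 and from -11.8 to -5.80 percentage points. In ESCs, Ldha's share was 62.4% and 97.9% with the length of the principal transcript, a setting chosen after seeing the data. Pkm's share difference of -0.453 percentage points in embryos, uncalled, turned to 0.272 without RNAi 6 (from -0.598 to 0.272 over the left-out libraries). Depth limits the embryo values: the members had 82 to 879 reads summed over a group.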
